A study of Capra hircus with 14 samples.

Results

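The collagen genes of the goat (Capra hircus) were followed while fibroblasts were exposed for 8 days to a medium intended to turn them into mammary epithelial cells. Collagen genes were taken as the rows of the deposited table whose gene name is COL, a number, A and a number, such as COL1A1. This gave 44 of the 30277 genes in the table. They were grouped by the structure their proteins form: 11 fibrillar genes, 9 network genes, 10 genes of the FACIT class (fibril-associated collagens with interrupted triple helices), 4 transmembrane genes and 10 genes of other types (VI, VII, XV, XVIII, XXVI and XXVIII). A filter on low counts, which kept 15712 genes of the table, kept 33 of the 44.

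Collagens are proteins of 3 chains wound into a triple helix, and a collagen type may combine chains of different genes. Fibrillar collagens give connective tissue its tensile strength and are made in bulk by fibroblasts. Type IV collagen forms the sheet on which epithelial cells sit, the basement membrane, while type XVII collagen in the hemidesmosome and type VII collagen in anchoring fibrils fasten basal epithelial cells, such as those of skin and the mammary gland, to the tissue below.

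The data are 14 RNA-seq libraries, a pair for each of 7 sampled days. Day 0 was GEF cells, labelled fibroblasts, in DMEM with fetal bovine serum. Days 1, 2, 3, 4, 6 and 8 were cells in R induction medium, which was refreshed every 2 days and whose composition the labels leave out; the day 8 cells are named CiMEC. All libraries carry the genotype label WT and the treatment label reprogramming, day 0 included, and plates were coated with Matrigel, a basement membrane extract. The labels do not say whether the replicates of a day were separate cultures, so p-values reflect how far paired libraries differed, and that spread may be technical. Time in culture and medium both changed after day 0, and their effects cannot be told apart. No later library without the medium was analysed here.

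Library totals ran from 20515126 to 24746010 estimated counts. Levels are given as CPM, the counts of a gene relative to its TMM-scaled library total, and 3 counts, the floor used here, stood for 0.117 to 0.15 CPM. Differences were tested with edgeR's quasi-likelihood F test over the 15712 genes, and a gene was called at a Benjamini-Hochberg adjusted p under 0.05. The 2 libraries of a day differed by a median of 0.031 to 0.097 on the log2 scale over the collagen genes on days 1 to 8, and by 0.153 at day 0. Because the fit shares 1 estimate of the spread over days, tests that involve day 0 may give p-values that are too small.

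The day 0 label was checked against cell type markers. All 12 fibroblast markers were detected at day 0 and summed to 13220 and 13290 CPM in its libraries. The 11 basal epithelial markers found in the table summed to 10690 and 11470 CPM in the same libraries, led by the keratins KRT14 and KRT5 at means of 4388 and 3810 CPM. Cells labelled fibroblasts thus held basal epithelial transcripts before the medium was changed. By day 8 the fibroblast sum was 5427 and 5505 CPM and the basal epithelial sum 48880 and 49700 CPM. Most of the latter was KRT5 and KRT14, at means of 25370 and 14520 CPM. Most of the fibroblast sum was VIM, with means of 8823 CPM at day 0 and 3349 at day 8. Of the 12 fibroblast markers 10 were lower at day 8 than at day 0, while THY1 (log2 fold change 0.61) and PRRX1 (0.79) were higher, against 35% and 36% of all genes tested. Of the 11 basal epithelial markers 9 were higher, LAMB3 (-1.69) was lower and ITGB4 was not called, against 36% higher and 35% lower of all genes. The 10 smooth muscle markers went from 1640 and 1793 CPM at day 0 to 11860 and 12140 at day 4 and 8509 and 8632 at day 8. Against day 0, 9 of these 10 were higher at day 8 and SMTN (-0.26) was lower. Cartilage markers summed to at most 105 CPM in a library and endothelial markers to at most 31.3 CPM, with the endothelial genes CDH5, EMCN, ESAM and TIE1 at 3 counts or fewer in each library. These are bulk libraries, so fewer cells of a type and less RNA per cell cannot be told apart, and the part that cell types took in the collagen changes was not tested.

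The summed collagen level was lower at day 8 than at day 0, and its composition differed. The 44 genes summed to 36477 ± 172 CPM (SD, n = 2) at day 0, 46400 ± 187 at day 1, 43801 ± 1720 at day 2, 25610 ± 1210 at day 3, 38028 ± 484 at day 4, 30646 ± 675 at day 6 and 26155 ± 117 at day 8. The sum was highest at day 1. The libraries of days 3 and 8 overlapped with each other and lay below all other libraries. Fibrillar genes made up 66.4% of the collagen CPM at day 0 and 57.3% at day 8, and type VI genes 23.9% and 13.8%. In the same interval network genes went from 0.966% to 6.38%, FACIT genes from 2.67% to 8.97% and transmembrane genes from 4.27% to 11.1%. Day 0 and day 8 libraries did not overlap in any of these 5 shares. The shares follow the most abundant genes of a class. COL17A1 held 1540 of 1558 transmembrane CPM at day 0 and 2895 of 2910 at day 8. COL12A1 held 357.5 of 972 FACIT CPM at day 0 and 1777 of 2346 at day 8. COL4A1, COL8A1 and COL4A2 held 713, 488 and 388 of 1669 network CPM at day 8. In these classes COL13A1, COL25A1, COL16A1, COL4A3, COL4A4 and COL8A2 were lower at day 8.

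**Figure D1:**
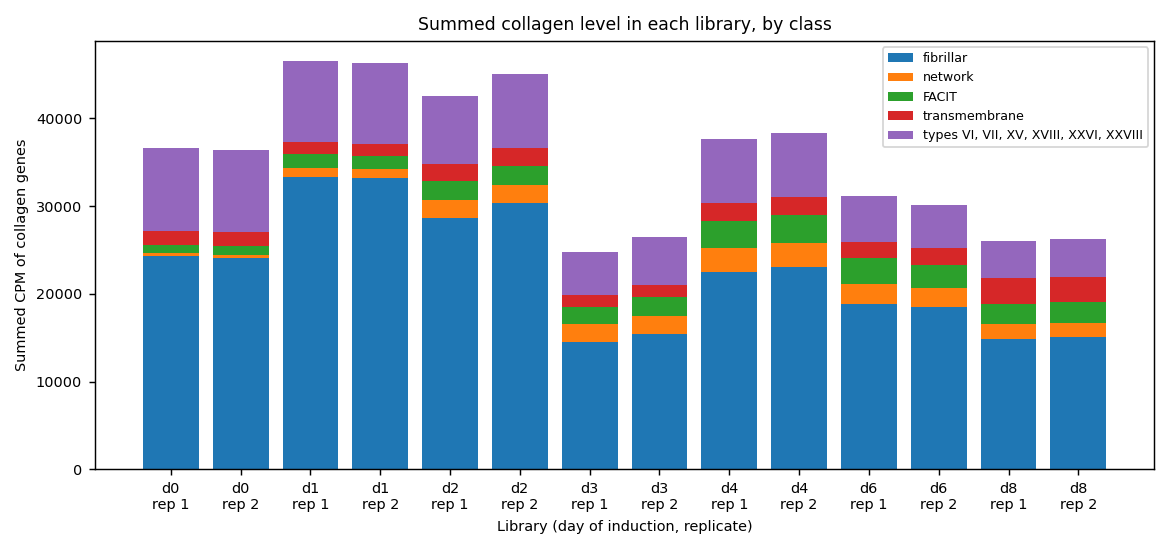
Stacked bars give the summed CPM of the collagen genes in each of the 14 libraries, coloured by class, with the day and replicate on the horizontal axis. The fibrillar part is highest at day 1, at 33339 and 33184 CPM, and the network part goes from 344 and 361 CPM at day 0 to a peak of 2661 and 2806 at day 4 and back to 1694 and 1645 at day 8.

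Of the 33 tested genes, 31 were called in the F test over all days, where 92.4% of all genes tested were called, so that share is near the background. COL11A2 (adjusted p = 0.338) and COL28A1 (adjusted p = 0.0878), both near the floor, were not called. At day 8 against day 0, 13 collagen genes were higher and 17 lower, against 36% and 35% of all genes tested. At least 2-fold changes were called upward for 7 and downward for 11 of the 33, where the background was 16.1% and 12.7%. The median log2 fold change was -0.49 for the collagen genes and 0.02 for all genes. By class, the median was -0.79 for the 10 fibrillar genes, 1.97 for the 8 network genes, 0.28 for the 4 FACIT genes, -0.03 for the 4 transmembrane genes and -0.76 for the 7 genes of other types.

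**Figure D2:**
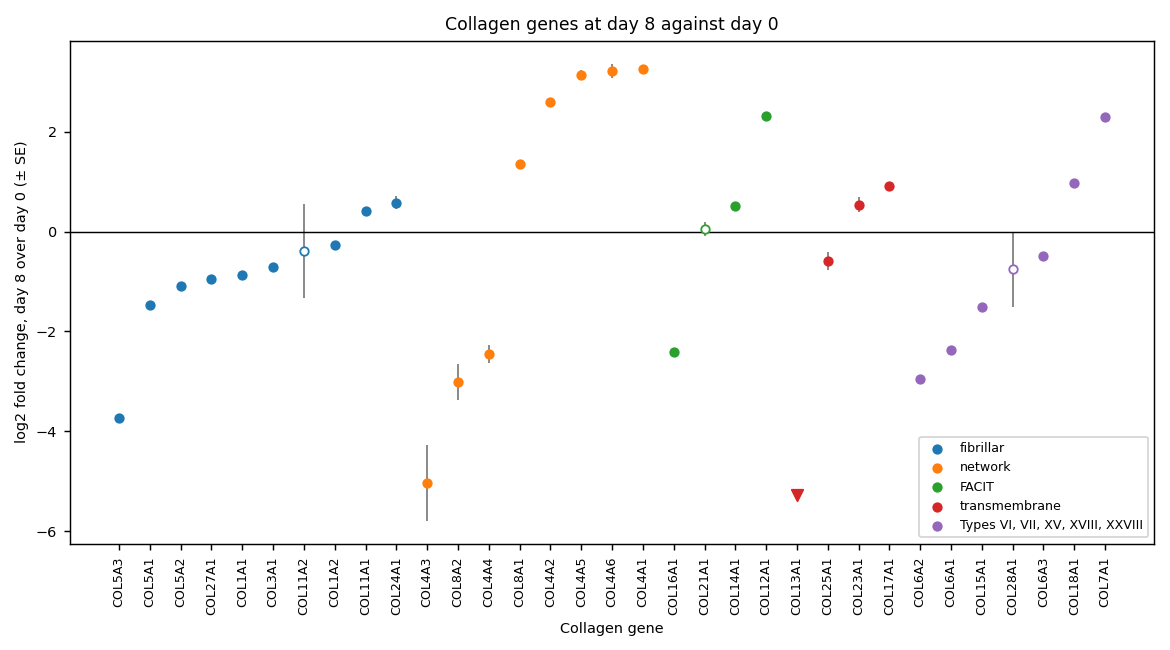
Each point is the log2 fold change of a tested collagen gene at day 8 over day 0, with the SE of the fit as a bar, ordered within classes. Filled points were called and open points were not. The triangle for COL13A1, which had no count at day 8, marks the least fall that its counts allow, 38.5-fold. COL4A1, COL4A2, COL4A5 and COL4A6 stand between 2.60 and 3.26, while COL5A3 stands at -3.74.

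**Figure D3:**
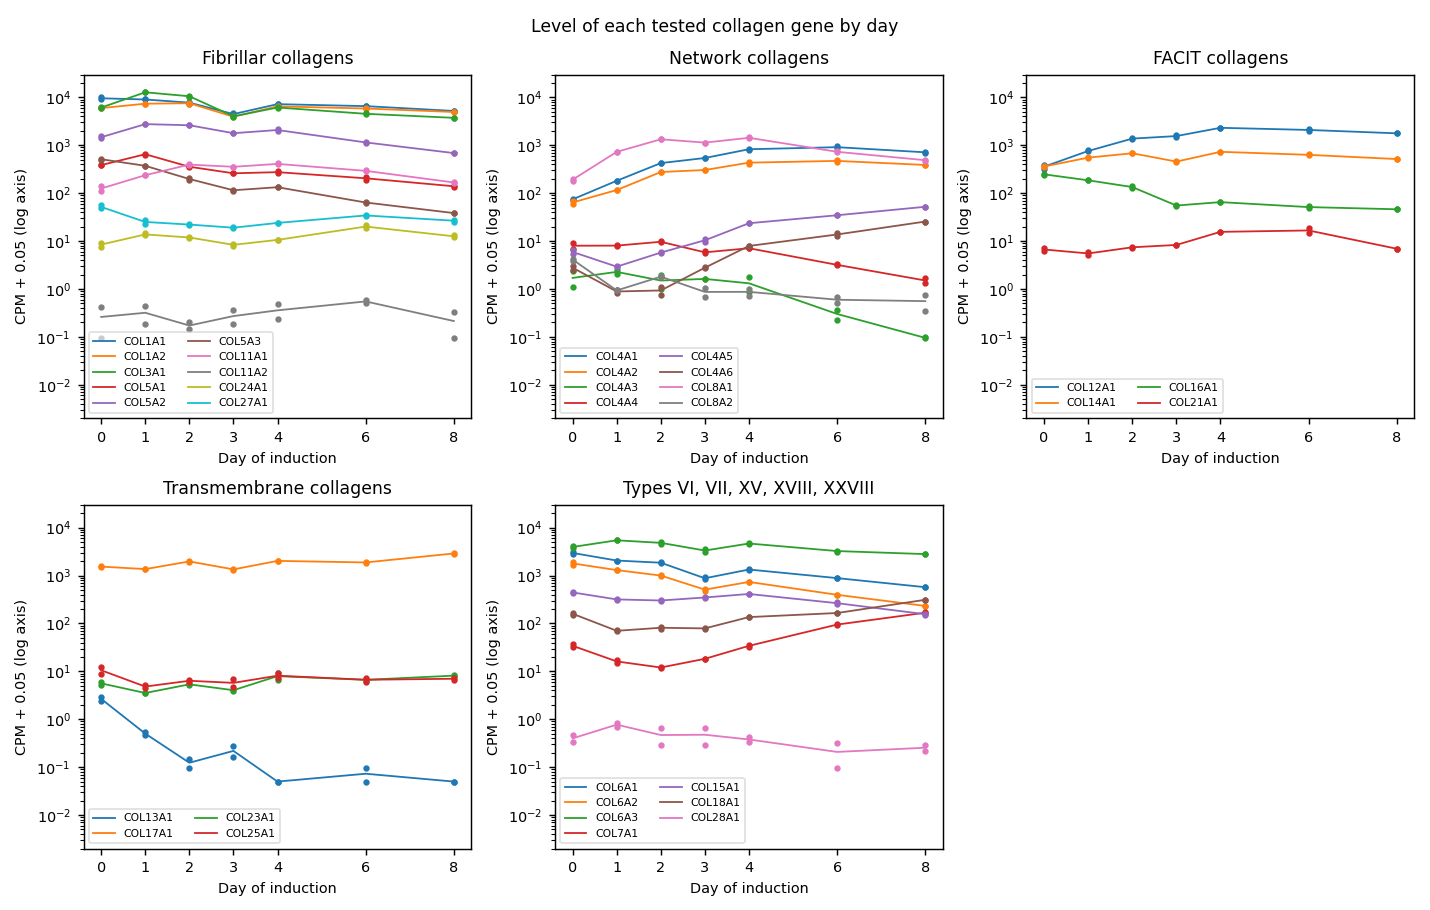
Points give the level of each tested collagen gene in each library and lines join the day means, with 0.05 added to CPM on a log axis so that a level of 0 can be drawn. Type I and III genes drop at day 3 and are higher again at day 4, COL4A5 rises from a low point at day 1 and COL4A6 from low levels at days 1 and 2, and COL13A1 is at 0 on days 4 and 8.

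The fibrillar genes of types I and III were the most abundant collagens per kilobase of transcript on every day. COL1A1 and COL1A2 encode the chains of type I collagen, the main collagen of skin, tendon and bone. COL1A1 measured 10080 and 9067 CPM at day 0, 9034 and 9042 at day 1, 7430 and 8106 at day 2, 4268 and 4701 at day 3, 7228 and 7222 at day 4, 6608 and 6531 at day 6 and 5134 and 5286 at day 8. COL1A2 measured 5895 and 6054 CPM at day 0, 7406 and 7361 at day 1, 7368 and 7749 at day 2, 3844 and 4056 at day 3, 6387 and 6594 at day 4, 5883 and 5837 at day 6 and 4906 and 5005 at day 8. Both genes were lowest at day 3 in both libraries and were higher again at day 4. Against day 0, COL1A1 was lower at day 8 (log2 fold change -0.88 ± 0.052 SE, adjusted p = 1.91e-13) and COL1A2 was lower by less (log2 fold change -0.27 ± 0.041 SE, adjusted p = 3.31e-06).

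COL3A1 encodes the chain of type III collagen, which forms fine reticular fibres and accompanies type I. Its level was 5919 and 6340 CPM at day 0, 12810 and 12740 at day 1, 10250 and 10860 at day 2, 3918 and 4125 at day 3, 6064 and 6226 at day 4, 4616 and 4471 at day 6 and 3746 and 3738 at day 8. Day 1 was 2.08-fold above day 0, and every library of days 3, 6 and 8 lay below both day 0 libraries. At day 8 the fall from day 0 was 1.64-fold (log2 fold change -0.71 ± 0.044 SE, adjusted p = 4.43e-13), and from day 1 the log2 fold change was -1.77 ± 0.045 SE. Per kilobase of transcript, COL1A1 led at day 0 with 1610 CPM, COL3A1 led at day 1 with 2320 CPM, and COL1A2 stood first at day 8 with 916 CPM beside 878 CPM for COL1A1.

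Type V collagen is built into type I fibrils and limits their diameter. Its main chains come from COL5A1 and COL5A2, and COL5A3 encodes a further chain of narrower distribution. COL5A1 gave 388 and 385 CPM at day 0, 659 and 641 at day 1, 347 and 365 at day 2, 260.2 and 260.0 at day 3, 264 and 285 at day 4, 216 and 193 at day 6 and 142 and 137 at day 8. COL5A2 gave 1396 and 1552 CPM at day 0, 2775 and 2754 at day 1, 2625 and 2613 at day 2, 1767 and 1810 at day 3, 2026 and 2138 at day 4, 1167 and 1128 at day 6 and 687 and 688 at day 8. COL5A3 gave 505 and 518 CPM at day 0, 376 and 370.1 at day 1, 189 and 206 at day 2, 112 and 118 at day 3, 132 and 135 at day 4, 64.2 and 63.5 at day 6 and 39 and 37.8 at day 8. COL5A1 and COL5A2 were highest at day 1, whereas COL5A3 was highest at day 0, and all 3 were lowest at day 8. The largest fall was that of COL5A3, 13.3-fold (log2 fold change -3.74 ± 0.058 SE, adjusted p = 1.26e-24). COL5A1 fell 2.77-fold (log2 fold change -1.47 ± 0.056 SE, adjusted p = 3.44e-17) and COL5A2 2.14-fold (log2 fold change -1.10 ± 0.049 SE, adjusted p = 6.29e-16).

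COL11A1 encodes a chain of type XI collagen, a relative of type V best known from cartilage. It measured 111 and 139 CPM at day 0, 239 and 236 at day 1, 398 and 393 at day 2, 350.5 and 359.9 at day 3, 397 and 419.8 at day 4, 299 and 286 at day 6 and 171 and 164 at day 8. It was higher on days 2, 3 and 4 than on days 0 and 8 in every library. Its rise at day 8 over day 0 was small (log2 fold change 0.42 ± 0.068 SE, adjusted p = 8.11e-06) and was 0.27 without day 0 replicate 1. COL11A2, its partner chain, stayed at 0.541 CPM or less, with 0.375 and 0.0464 CPM at day 0, 0.139 and 0.398 at day 1, 0.0951 and 0.15 at day 2, 0.132 and 0.311 at day 3, 0.431 and 0.185 at day 4, 0.458 and 0.541 at day 6 and 0.285 and 0.043 at day 8. The libraries of days 0 and 8 overlapped, and no difference was detectable at this depth (log2 fold change -0.39 ± 0.95 SE, adjusted p = 0.726). COL2A1, the main cartilage collagen, had 2 counts over all libraries.

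COL27A1 encodes a fibrillar collagen known from cartilage. Its values were 47.8 and 55.3 CPM at day 0, 27.3 and 22.7 at day 1, 21.6 and 22.5 at day 2, 19.6 and 18.4 at day 3, 23.9 in both libraries at day 4, 35.4 and 33 at day 6 and 27.8 and 25.3 at day 8. Day 0 was highest and day 3 lowest, and at day 8 the level was 1.94-fold under day 0 (log2 fold change -0.96 ± 0.088 SE, adjusted p = 8.65e-10). The remaining fibrillar gene, COL24A1, lay between 7.64 and 21.6 CPM and was higher at day 8 (log2 fold change 0.58).

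All 8 tested network genes differed at least 2-fold between day 0 and day 8, with 5 higher and 3 lower. Of all genes tested, 16.1% were called at least 2-fold higher and 12.7% at least 2-fold lower. In type IV collagen, COL4A1 and COL4A2 encode the chains found in nearly all basement membranes. COL4A1 measured 73.3 and 75.3 CPM at day 0, 179.6 and 184 at day 1, 420.3 and 429 at day 2, 540.5 and 546 at day 3, 806 and 848 at day 4, 947 and 879 at day 6 and 721 and 705 at day 8. COL4A2 measured 67.6 and 60.4 CPM at day 0, 115 and 118 at day 1, 274 and 279 at day 2, 306 and 303 at day 3, 415 and 452 at day 4, 488 and 456 at day 6 and 396 and 381 at day 8. Every library from day 1 on was above both day 0 libraries for each gene, with the highest means at day 6. COL4A1 rose 9.60-fold to day 8 (log2 fold change 3.26 ± 0.054 SE, adjusted p = 2.84e-24) and COL4A2 6.07-fold (log2 fold change 2.60 ± 0.061 SE, adjusted p = 2.03e-21). Much of the rise was in place by day 2: the step from day 0 to day 1 was 1.29 and 0.86 on the log2 scale for the 2 genes, and that from day 1 to day 2 was 1.23 and 1.25. From day 6 to day 8 both fell, by 0.36 and 0.28.

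COL4A5 and COL4A6 encode chains that join in the basement membranes of some epithelia and of smooth muscle. COL4A5 stood at 6.33 and 5.43 CPM at day 0, 2.78 and 2.96 at day 1, 5.66 and 5.74 at day 2, 9.74 and 10.9 at day 3, 23.3 and 23.7 at day 4, 34.9 and 34.2 at day 6 and 51.6 and 52.3 at day 8. COL4A6 stood at 2.44 and 3.02 CPM at day 0, 0.787 and 0.885 at day 1, 0.713 and 1.05 at day 2, 2.78 and 2.68 at day 3, 7.95 and 7.77 at day 4, 14.7 and 12.7 at day 6 and 25.6 and 25.5 at day 8. Both first fell from day 0 to day 1, by 1.03 and 1.70 on the log2 scale, and then climbed to their highest level at day 8 in both libraries. Over day 0, COL4A5 was 8.84-fold higher at day 8 (log2 fold change 3.14 ± 0.096 SE, adjusted p = 3.87e-19) and COL4A6 9.34-fold (log2 fold change 3.22 ± 0.14 SE, adjusted p = 4.13e-16). They rose later than COL4A1 and COL4A2: the largest steps were day 3 to day 4 for COL4A5 (1.18) and day 2 to day 3 for COL4A6 (1.63).

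COL4A3 and COL4A4 encode the chains that join that of COL4A5 in the kidney glomerulus. COL4A3 was at 1.03 and 2.27 CPM at day 0, 2.45 and 1.99 at day 1, 0.951 and 1.95 at day 2, 1.59 and 1.56 at day 3, 0.814 and 1.71 at day 4, 0.321 and 0.18 at day 6 and 0.0475 and 0.043 at day 8. COL4A4 was at 6.93 and 8.95 CPM at day 0, 8.05 and 7.92 at day 1, 9.89 and 9.34 at day 2, 5.51 and 6.03 at day 3, 7.04 and 7.03 at day 4, 3.21 and 3.06 at day 6 and 1.61 and 1.29 at day 8. Both moved opposite to the other 4 type IV genes at day 8, where every library lay below every library of days 0 to 6. COL4A3 had 71 counts in the day 0 libraries and 2 in those of day 8, a ratio of 36.7 (95% interval 9.78 to 309, counting error only; adjusted p = 2.56e-06 in edgeR). Its fitted log2 fold change was -5.03, and -4.33 without day 0 replicate 2. COL4A4 was 5.48-fold lower (log2 fold change -2.45 ± 0.19 SE, adjusted p = 2.49e-11). In sum, type IV genes made up 0.429% of the collagen CPM at day 0 and 4.51% at day 8.

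Type VIII collagen is a short-chain network collagen known from blood vessels and the cornea. COL8A1 measured 182 and 202 CPM at day 0, 727 and 730.2 at day 1, 1337 and 1332 at day 2, 1136 and 1139 at day 3, 1401 and 1464 at day 4, 750.0 and 711 at day 6 and 497 and 479 at day 8. COL8A2 measured 4.26 and 3.85 CPM at day 0, 0.879 and 0.885 at day 1, 1.71 and 1.8 at day 2, 1.01 and 0.622 at day 3, 0.671 and 0.971 at day 4, 0.642 and 0.451 at day 6 and 0.712 and 0.301 at day 8. The chains moved apart: COL8A1 rose 3.8-fold by day 1, was highest at day 4 and was still above day 0 at day 8 (log2 fold change 1.35 ± 0.052 SE, adjusted p = 3.65e-17), while COL8A2 was highest at day 0 and lower at day 8 (log2 fold change -3.01 ± 0.37 SE, adjusted p = 1.02e-07). COL8A2 rested on few counts, and its change ranged from -3.73 to -2.50 when 1 library was left out, with the ends set by the 2 day 8 libraries. COL10A1, the network collagen of growth plate cartilage, had at most 6 counts in a library and was not tested.

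FACIT collagens sit on the surface of fibrils. COL12A1, known from tendon and from dense connective tissue under load, had the most counts of them. Its level was 327 and 388 CPM at day 0, 778 and 743 at day 1, 1369 and 1388 at day 2, 1475 and 1639 at day 3, 2337 and 2297 at day 4, 2174 and 2006 at day 6 and 1785 and 1769 at day 8. It was higher in every later library than in those of day 0 and highest at day 4, and at day 8 it remained 4.97-fold above day 0 (log2 fold change 2.31 ± 0.065 SE, adjusted p = 6.46e-20). Of the other 3 tested FACIT genes, COL14A1 ranged from 350 to 736 CPM and was higher at day 8 (0.52), COL16A1 ranged from 45.8 to 253 CPM and was lower (-2.42), and COL21A1 ranged from 5.05 to 18.6 CPM and was not called (0.05, adjusted p = 0.755). The type IX genes COL9A1, COL9A2 and COL9A3, which accompany cartilage fibrils, had at most 8 counts in a library, COL19A1 had 1 count in all, and COL20A1 and COL22A1 had none, which allows up to 3 counts in a library.

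Among the transmembrane collagens, COL17A1 encodes a collagen that spans the membrane of basal epithelial cells in the hemidesmosome. It measured 1519 and 1560 CPM at day 0, 1365 in both libraries at day 1, 1911 and 2036 at day 2, 1295 and 1399 at day 3, 2011 and 2042 at day 4, 1907 and 1854 at day 6 and 2924 and 2866 at day 8. It was already abundant at day 0, and both day 8 libraries lay above all others (log2 fold change 0.91 ± 0.046 SE, adjusted p = 9.74e-15). Most of this difference came from the last interval, day 6 to day 8 (log2 fold change 0.62 ± 0.046 SE). Per kilobase it was the seventh of the collagen genes at day 0, with 267 CPM, and the fourth at day 8, with 502 CPM.

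COL13A1, a membrane collagen of cell adhesion sites and the neuromuscular junction, gave 2.86 and 2.37 CPM at day 0, 0.417 and 0.487 at day 1, 0.0476 and 0.0999 at day 2, 0.22 and 0.117 at day 3, 0 in both libraries at day 4, 0.0458 and 0 at day 6 and 0 in both libraries at day 8. Its 112 counts at day 0 became 0 at day 8, so it was at least 38.5-fold lower, with the floor of 3 counts set over the day 8 group (adjusted p = 2.33e-08 in edgeR). COL23A1 ranged from 3.41 to 9.15 CPM and was higher at day 8 (0.54). COL25A1 ranged from 4.44 to 12.2 CPM and was lower (-0.59, adjusted p = 0.00387). Leaving out day 0 replicate 1 ended that call (-0.34, adjusted p = 0.13).

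Type VI collagen forms beaded filaments around cells. COL6A1 measured 3080 and 2858 CPM at day 0, 2058 and 2063 at day 1, 1802 and 1909 at day 2, 845 and 912 at day 3, 1328 and 1348 at day 4, 895 and 876 at day 6 and 577 and 568 at day 8. COL6A2 measured 1891 and 1698 CPM at day 0, 1299 and 1304 at day 1, 969 and 1032 at day 2, 484 and 533 at day 3, 723 and 751 at day 4, 393 and 401 at day 6 and 236 and 229 at day 8. COL6A3 measured 3845 and 4070 CPM at day 0, 5498 and 5407 at day 1, 4625 and 5021 at day 2, 3139 and 3526 at day 3, 4699 and 4644 at day 4, 3333 and 3168 at day 6 and 2762 and 2856 at day 8. The first 2 were highest at day 0 and lowest at day 8, while COL6A3 was highest at day 1 and lost less by day 8. COL6A2 fell 7.73-fold (log2 fold change -2.95 ± 0.059 SE, adjusted p = 8.49e-23) and COL6A1 5.19-fold (log2 fold change -2.37 ± 0.051 SE, adjusted p = 3.19e-22), against 1.41-fold for COL6A3 (log2 fold change -0.49 ± 0.052 SE, adjusted p = 8.28e-09). The alternative chains COL6A5 and COL6A6 had at most 2 counts in a library.

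COL7A1 encodes the collagen of anchoring fibrils, which tie the basement membrane of stratified epithelia to the tissue below. Its level was 31.9 and 36.4 CPM at day 0, 16.9 and 15.3 at day 1, 11.8 and 12.1 at day 2, 18.2 and 18.3 at day 3, 32.9 and 35.3 at day 4, 96.2 and 93.4 at day 6 and 169.6 and 166 at day 8. It fell until day 2 and then rose in each interval, so that both day 8 libraries were the highest. At day 8 it was 4.91-fold above day 0 (log2 fold change 2.30 ± 0.067 SE, adjusted p = 1.76e-19).

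COL18A1 encodes a basement membrane proteoglycan whose end piece is released as endostatin. It measured 167 and 153 CPM at day 0, 71.4 and 69 at day 1, 78 and 84.7 at day 2, 77.4 and 80.4 at day 3, 134 and 138 at day 4, 165 and 166 at day 6 and 315 and 309.7 at day 8. It also fell first, by 1.19 on the log2 scale at day 1, and was highest at day 8, at 1.96-fold the day 0 level (log2 fold change 0.97 ± 0.053 SE, adjusted p = 5.3e-14). COL15A1, its relative, ranged from 152 to 464 CPM and was lower at day 8 (-1.51). COL28A1 stayed at 0.796 CPM or less without a call at day 8 against day 0 (-0.76, adjusted p = 0.37), and COL26A1 had at most 4 counts in a library. Against day 1, COL28A1 was called lower at day 8 (-1.80), a call that was lost with DESeq2.

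The intervals between sampled days were then compared. From day 0 to day 1, 12 collagen genes were called higher and 15 lower, where 34.8% and 34.5% of all genes were. Changes of at least 2-fold were called upward for 4 and downward for 8, where the background was 14.1% and 9.4%. The rises were those of COL8A1 (1.93), COL4A1 (1.29), COL12A1 (1.09) and COL3A1 (1.06). The falls were those of COL13A1 (-2.52), COL8A2 (-2.19), COL4A6 (-1.70), COL18A1 (-1.19), COL25A1 (-1.14), COL7A1 (-1.09), COL27A1 (-1.04) and COL4A5 (-1.03). All 4 transmembrane genes were lower, although the small difference in COL17A1 (-0.17) was not called with library totals in place of TMM. From day 1 to day 2, 12 were higher and 10 lower, where the background was 25.3% and 23.1%, with 5 of the 8 network genes higher and none lower. Among those 5, COL8A2 (0.99) lost its call when any of the 4 libraries was left out.

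From day 2 to day 3, 7 collagen genes were higher and 16 lower, against 21.2% and 24.1% of all genes. Of the 10 fibrillar genes 7 were lower, among them COL3A1 (-1.39), COL1A2 (-0.94) and COL1A1 (-0.79), and none was higher. Of the 12 fibroblast markers 10 were lower and 1 higher in this interval, and their sum went from a mean of 16140 to 10510 CPM. Over the same days 9 of 11 basal epithelial markers were higher and 1 lower, and 8 of 10 smooth muscle markers were higher and 0 lower. From day 3 to day 4 the direction turned: 26 collagen genes were higher and 1 lower, against 28.8% and 21.6% of all genes. The same day 3 libraries serve in both intervals, so the fall and the rise are not independent. The collagen median was 0.51 and that of all genes 0.07. Rises spread over all classes, with 8 of 10 fibrillar, 5 of 8 network, 4 of 4 FACIT, 3 of 4 transmembrane and 6 of 7 other genes called higher. With library totals in place of TMM the median of all genes moved by -0.12 and 18 of the 33 were higher. The gene called lower was COL13A1, from 8 counts to 0, and its call was lost without either day 4 library or without day 3 replicate 1. In this interval 10 of 11 basal epithelial, 7 of 10 smooth muscle and 6 of 12 fibroblast markers were higher.

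From day 4 to day 6, 7 were higher and 17 lower, where 23% and 31.2% of all genes were. The median of all genes in this interval was -0.08. The falls of COL1A1 (-0.14), COL1A2 (-0.15) and COL12A1 (-0.15) were small and were not called with RLE scaling. With library totals in place of TMM these changes were 0.00, -0.01 and -0.01, and 8 collagen genes were higher and 13 lower. From day 6 to day 8, 5 were higher and 21 lower, against a background of 25.6% and 23.2%. The 5 were COL4A5, COL4A6, COL7A1, COL17A1 and COL18A1, with log2 fold changes of 0.59 to 0.92. No fibrillar gene was higher in this interval and 9 of 10 were lower.

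**Figure D4:**
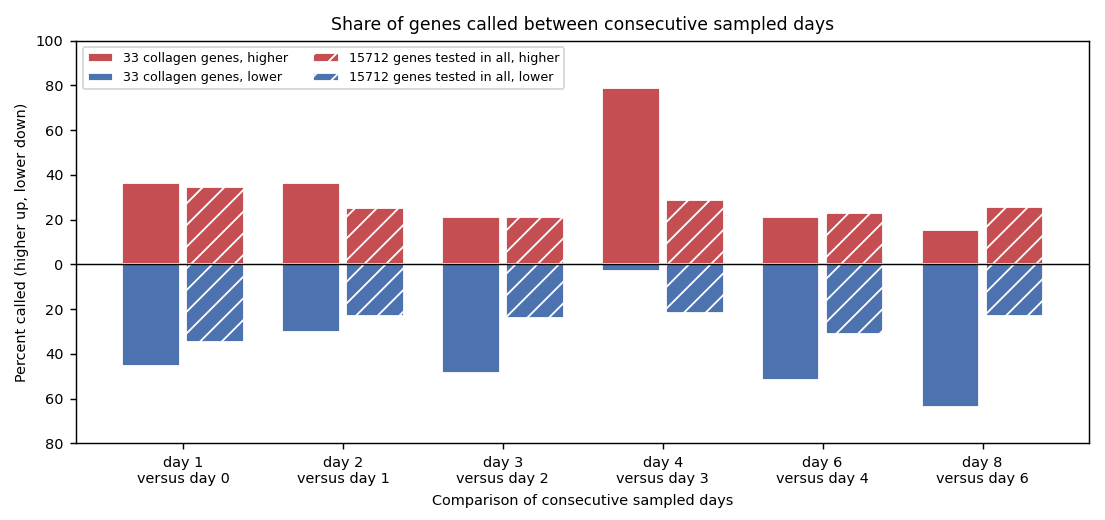
Bars give the percent of the 33 tested collagen genes (plain) and of all 15712 genes tested (hatched) called higher (upward) or lower (downward) between consecutive sampled days. The collagen bar for day 4 against day 3 reaches 78.8% upward, beside 28.8% of all genes, and that for day 8 against day 6 reaches 63.6% downward, beside 23.2%.

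Day 8 was also set against day 1, so that both days were in the medium. The same day 8 libraries serve as in the comparison with day 0. Here 10 collagen genes were higher and 17 lower, against 31.8% and 35% of all genes, and the median was -0.58 beside -0.04 for all genes. The largest rises were those of COL4A6 (4.92), COL4A5 (4.17), COL7A1 (3.38) and COL18A1 (2.15). COL8A1 and COL11A1, higher at day 8 than at day 0, were lower than at day 1 (-0.58 and -0.50).

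For all compared chain pairs of a collagen type but COL11A1 to COL11A2, the ratio differed over the days. COL11A2 had at most 12 counts in a library, and the day 0 libraries gave per-length ratios of 254 and 1810. Whether that pair kept a fixed proportion could therefore not be judged. Of all genes tested 92.4% differed over the days, and how often ratios of other gene pairs did was not tested. The ratio of 2 chains within a library does not depend on how libraries are scaled, and 10 pairs of chains were compared over the 7 days with an exact permutation test of the log2 ratio, with p adjusted over the 10 pairs and 3.7e-05 as the lowest adjusted value reached. Each p is for differences over the 7 days, and the change from day 0 to day 8 given beside it was not itself tested. Per length, COL1A1 stood at 1.46 times COL1A2 at day 0 and at 0.959 times at day 8 (change in log2 ratio -0.61, adjusted p = 0.00037). This shift was in place by day 2, when the ratio was 0.937.

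The ratio of COL4A1 to COL4A2 rose from 1.12 to 1.76 (0.66, exact permutation test, adjusted p = 5.9e-05). That of COL4A5 to COL4A6 rose from 1.27 to 3.80 at day 2 and returned to 1.20 at day 8. The day 2 value rested on 15 and 21 COL4A6 counts, and its 2 libraries gave 4.56 and 3.18. This ratio differed between days (exact permutation test, adjusted p = 0.0014). Its change from day 0 to day 8 was -0.08 and turned to 0.18 without day 0 replicate 1. A further row of the table described as a chain like that of COL4A6 went from 0.58 to 12 CPM, and with it added to COL4A6 the ratio of counts went from 1.79 at day 0 to 3.55 at day 2 and 1.38 at day 8. Without that row the ratio of counts was 2.15, 6.44 and 2.04 on the same days, so the day 2 peak was lower with it, and the ratio ended below day 0 (change in log2 ratio -0.37). In the COL4A3 to COL4A4 pair the ratio went from 0.142 to 0.0334 (-2.09, adjusted p = 0.019), on few COL4A3 counts.

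The widest shifts on well-counted genes were in types V and VI. COL5A3 to COL5A1 went from 0.776 to 0.161 (-2.27, exact permutation test, adjusted p = 3.7e-05), with more than a 2-fold drop by day 1, to 0.336. COL5A1 to COL5A2 went from 0.458 to 0.354 (-0.37, adjusted p = 4.9e-05), with lower values in between. Some counts of this chain may lie in 2 further rows described as the chain of COL5A1, which fell from 397 and 98.7 CPM at day 0 to 96.7 and 50 at day 8. With them added the changes in log2 ratio were -2.11 and -0.53. In type VI, whose chains join in equal numbers in the classical protein, COL6A3 to COL6A1 rose from 0.491 to 1.81 (1.88, adjusted p = 5.9e-05), and COL6A1 to COL6A2 from 1.54 to 2.29 (0.58, adjusted p = 3.7e-05). COL8A1 to COL8A2 rose from 40.1 to 855 (4.41, adjusted p = 0.016), and the ratio of COL11A1 to COL11A2 did not pass the test (adjusted p = 0.55).

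**Figure D5:**
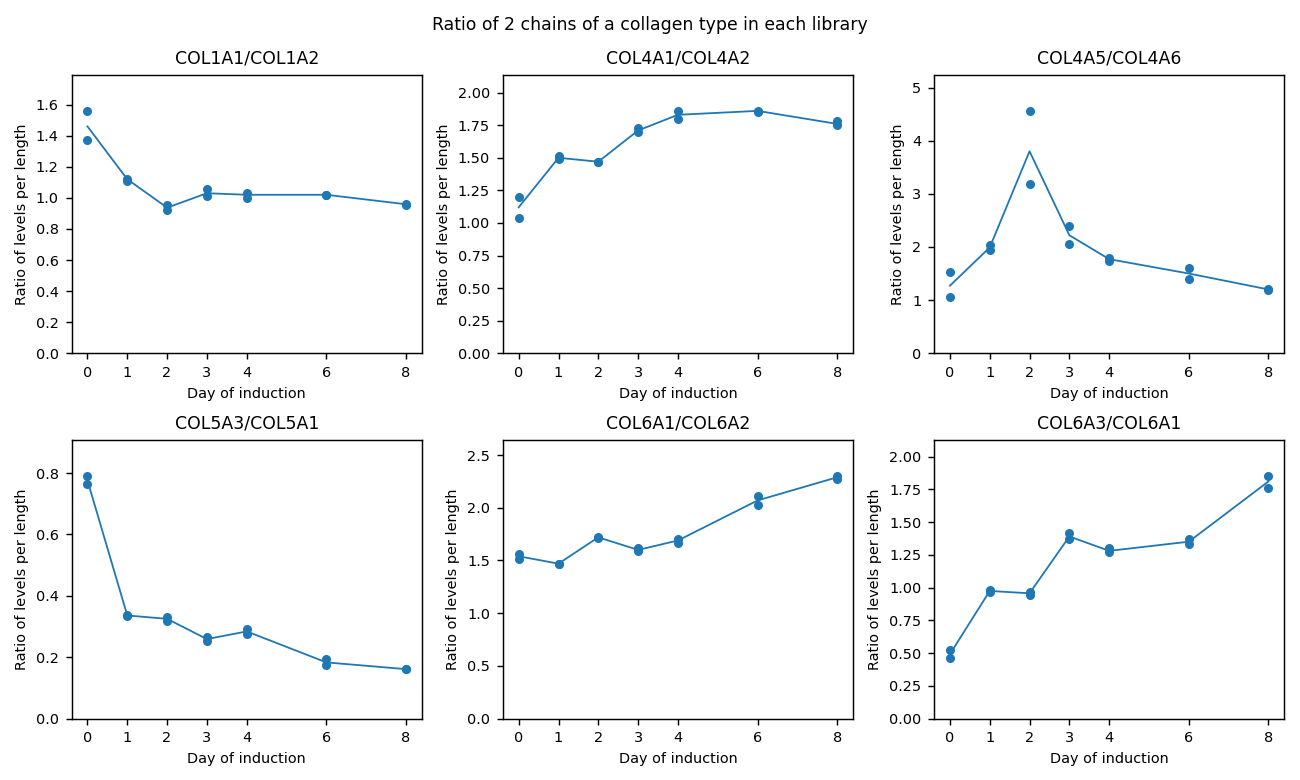
Each panel gives the ratio of the per-length levels of 2 chains of a collagen type in each library (points) and its day mean (line), on an axis that starts at 0. COL5A3 to COL5A1 falls from 0.776 to 0.161, and COL6A3 to COL6A1 rises from 0.491 to 1.81. COL4A5 to COL4A6 has a peak of 3.80 at day 2, on few COL4A6 counts.

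Some of these genes lie side by side. In the RefSeq annotation of assembly ARS1.2, which was used for gene order alone, 6 pairs of collagen genes are neighbours. Of these, COL4A1 and COL4A2 were both higher at day 8 than at day 0, where 36% of all genes tested were. The neighbours COL4A3 and COL4A4, COL6A1 and COL6A2, and COL3A1 and COL5A2 were lower, where 35% of all genes were. The pairs COL6A6 and COL6A5, and COL19A1 and COL9A1, had too few counts to be tested. How often neighbouring genes in general changed in the same direction was not tested.

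The proteins that make, cut and bind collagen were read from 4 lists. In the list of chain modification and folding, 19 of 20 genes were tested, and at day 8 against day 0 1 was higher and 17 lower, where 36% and 35% of all genes were, with a median of -1.32. The gene that was higher, COLGALT2, a sugar transferase for collagen, rose from 0.535 ± 0.293 to 1.98 ± 0.553 CPM (SD, n = 2; log2 fold change 1.87). The largest falls were in the prolyl hydroxylase subunit P4HA3, from 104 to 3.47 CPM (-4.91), and the lysyl hydroxylase PLOD3, from 202 to 31.8 CPM (-2.67). Of the 14 genes for procollagen cleavage and cross-linking, 3 were higher and 11 lower (median -1.29), beside the same 36% and 35% of all genes. The lysyl oxidase LOX, which starts cross-linking, rose from 104 to 268 CPM (1.36) and its relative LOXL4 from 1.38 to 3.35 CPM (1.27). The enhancer of procollagen cleavage PCOLCE2 fell from 74.7 to 5.60 CPM (-3.74) and the protease ADAMTS3 from 7.14 to 0.875 CPM (-3.01).

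Of 8 tested collagen receptors, 3 were higher and 4 lower at day 8 against day 0 (median -0.21), where 36% and 35% of all genes were. Against day 1, 1 was higher and 7 were lower, where 31.8% and 35% of all genes were. Among the latter, ITGA1 (-0.77) had its highest mean at day 6, 554 CPM. The changes that follow are again those from day 0 to day 8. The receptor kinase DDR1, known from epithelia, rose from 93.5 to 237 CPM (1.34) and the integrin subunit ITGA1 from 79.4 to 170 CPM (1.10), while ITGA10 fell from 23.1 to 0.981 CPM (-4.56) and the endocytic receptor MRC2 from 311 to 104 CPM (-1.58). Of 17 tested partners in basement membranes and their anchoring, 6 were higher and 7 lower (median -0.06), close to the background. DST, a hemidesmosome plakin, rose from 436 to 2564 CPM (2.56) and the integrin subunit ITGA6 from 610 to 1460 CPM (1.26), while the laminin chain LAMB3 fell from 601 to 186 CPM (-1.69) and the peroxidase PXDN, which cross-links type IV collagen, from 287 to 119 CPM (-1.27). ITGB4, the hemidesmosome partner of ITGA6, was not called (0.02). ITGA6, ITGB4, DST and LAMB3 are also on the list of basal epithelial markers.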

How the data were processed

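RNA of 14 goat libraries was depleted of ribosomal RNA and made into TruSeq libraries, per the labels' protocols. The authors deposited 1 table of estimated counts per gene and library with a transcript length per gene. Per the submitters' processing notes, the tools included DESeq2 1.16.1, FastQC 0.10.1 and HTSeq. The notes give no order, and aligner, build and strand setting were not given in the sources used here. Of the deposited estimated counts of all genes 90% are whole numbers, so reads may have been split between similar chains, and overlapping genes cannot be told apart. Among the collagen genes, fractional values occur for COL5A1, COL5A2, COL11A1 and COL25A1. Day means in the table (7 columns) were not used.

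Counts were rounded and tested with edgeR 4.0.16 in R 4.3.3 with limma 3.58.1, using TMM factors, filterByExpr by day, all 14 libraries in 1 quasi-likelihood fit without a block (7 residual degrees of freedom, common biological coefficient of variation 0.045), 2-sided F tests and Benjamini-Hochberg adjustment over 15712 genes. SE is the absolute log2 fold change over the square root of F. Levels between genes are compared as CPM per kilobase of the deposited length. Chain ratios used counts plus 0.5 and an exact permutation test of the between-day sum of squares (upper tail, no direction) over all 135135 ways to split 14 libraries into 7 pairs, with a smallest possible p of 7.4e-06. Of 12 chain pairs listed, 10 had both chains tested. The edgeR and permutation steps were tested on simulated data. Intervals and floors cover counting error only.

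Described with all library values were the 8 genes with the highest mean CPM, the 4 largest rises and 4 largest falls at day 8 against day 0, the highest gene of each class, the 3 genes highest and the 3 lowest on days 2 to 4 against days 0 and 8, and the chain pairs. From each companion list the 2 largest called rises and falls are named. The members, lists and rules were chosen with earlier results of these data known. P4HA2, LAMB2, KRT15, SNORC and CNMD were not matched by name. Alternatives tried were RLE scaling, library totals, DESeq2 1.42.0, looser and stricter filters, the compared days alone, a replicate block and leaving out each library. After the data were seen, sums of COL5A1 and COL4A6 with further rows of the same chain were added.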

Additional observations from a re-analysis of the deposited data

How the results depend on the processing

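At day 8 against day 0 the counts of 13 higher and 17 lower collagen genes were the same with RLE scaling, with library totals and with the replicate number as a block, and leaving out 1 library gave 13 higher and 16 to 17 lower. At day 4 against day 3 leaving out a library gave 23 to 26 higher and 0 to 1 lower, and the stricter filter, which drops COL13A1, gave 0 lower. The change of COL11A2 ranged from -2.15 to 1.66 when 1 library was left out, with the upper end without day 0 replicate 1 and 0.43 without day 8 replicate 2. That of COL21A1 ranged from -0.02, without day 0 replicate 1, to 0.15, and none of these was called. Leaving out 1 library gave changes in log2 chain ratio from day 0 to day 8 of -0.70 to -0.51 for COL1A1 to COL1A2, 0.56 to 0.76 for COL4A1 to COL4A2, -0.34 to 0.18 for COL4A5 to COL4A6, -0.45 to -0.29 for COL5A1 to COL5A2, 1.78 to 1.97 for COL6A3 to COL6A1, 3.85 to 4.98 for COL8A1 to COL8A2 and -0.75 to 2.08 for COL11A1 to COL11A2, which was -0.43 without day 8 replicate 2. The cause was not tested. Library totals moved the median of all genes by -0.12 at day 4 against day 3, 0.14 at day 6 against day 4 and -0.11 at day 8 against day 6.

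The replicate numbers share no stated culture. Over the 21 pairs of days, same-numbered libraries had deviations with correlations of -0.315 to 0.184, over 0.1 in 2, so the numbers were not taken to pair the libraries. With the replicate block the counts higher and lower were 12 and 15 at day 1 against day 0, 12 and 10 at day 2 against day 1, 6 and 16 at day 3 against day 2, 26 and 1 at day 4 against day 3, 7 and 16 at day 6 against day 4, 5 and 20 at day 8 against day 6, and 10 and 17 at day 8 against day 1. Depth limits COL4A3, COL8A2, COL11A2, COL13A1 and COL28A1, which rest on few counts, and COL4A6 on days 1 and 2.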

Other observations

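The name pattern does not take every row of the table that is described as a collagen chain. There were 32 further rows, of which 13 passed the filter and 7 had no count in any library. LOC108635555, described as a chain like that of COL5A1, fell from 397.2 to 96.74 CPM (log2 fold change -2.04 at day 8 against day 0), and LOC102187872, described as that chain, from 98.67 to 50 CPM (-0.98). Both fell with COL5A1. LOC108633195, described as a chain like that of COL4A6, rose from 0.58 to 12 CPM (4.35), as COL4A6 did.

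Other such rows did not follow the named gene. LOC108635080, described as a chain like that of COL3A1, was higher at day 8, at 416.8 CPM against 303.5 at day 0 (0.46, adjusted p = 0.00544), where COL3A1 was lower. LOC108635404, described as a chain like that of COL1A1, was at 269.9 CPM at day 0 and 248.6 at day 8 and was not called. How reads were divided between these rows and the named genes is not stated in the labels.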
